A study of Bos taurus with 9 samples.

Results

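Lysophosphatidic acid (LPA) was compared with its vehicle in co-cultured stromal and epithelial cells of bovine endometrium, on 3 LPA arrays and 3 control arrays of the 9 arrays in the series. The arrays were chosen by their titles, and the comparison covers 24016 of 24128 probe sets, leaving out the 112 control probe sets of the Affymetrix bovine array. Uteri came from a slaughterhouse, from 9 cows of the Holstein/Polish Black and White breed on days 2 to 5 of the oestrous cycle. Control wells received phosphate-buffered saline (PBS) and LPA wells received 1-oleoyl LPA at 1e-06 M, both for 6 h, in medium with bovine serum albumin in place of fetal calf serum. The LPA+IFNt arrays, from cells given the same LPA together with interferon tau, share the control arrays with this comparison. Their values are given only side by side, but they also enter the estimate of spread in the tests on all 9 arrays. The 9 arrays of the series include none from cells given only interferon tau. Each array was hybridised with RNA pooled from 3 cows, and since 9 pools were made from 9 cows, pools share animals.

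LPA is a small phospholipid that acts on cells from outside by way of several G protein-coupled receptors, which signal to calcium, to MAP kinases and to the actin cytoskeleton. It is made mainly from lysophosphatidylcholine by the secreted enzyme autotaxin, and lipid phosphate phosphatases break it down. In the bovine uterus it is known as a local signal of early pregnancy that acts on prostaglandin production, and interferon tau is the signal by which the ruminant embryo maintains the corpus luteum.

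The cultures carried transcripts of both labelled cell types. All 17 measured epithelial markers and all 16 measured stromal markers had a mean in the control arrays above 2.80, the highest value of a probe set for the bacterial trp genes, which bovine RNA does not contain. Of the markers of cells that may be carried along, 7 of 20 leukocyte and 5 of 9 smooth muscle and pericyte markers were above it. For endothelial markers it was 1 of 12 and for red blood cell markers 0 of 6. Array medians lay between 4.30 and 4.38 on the log2 scale. Correlations over all probe sets were 0.998 to 0.999 among the control arrays and 0.997 to 0.998 among the LPA arrays. The difference between 3' and 5' probe sets of GAPDH ran from 0.02 in LPA replicate 3 to 0.55 in control replicate 1, and the mean of the polyA spikes from 7.62 in LPA replicate 3 to 8.37 in LPA replicate 2. For the elongation factor EF1A the difference between 3' and 5' probe sets was -2.52, -2.64 and -2.63 in control and -2.87, -2.89 and -3.01 with LPA, without overlap between the groups. The part of these differences in the results was not tested.

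Few transcripts passed the test after 6 h of LPA. Among them, the immediate early gene IER2, the ribosome assembly genes UTP6 and GTPBP4, the HSP90 cochaperone gene AHSA1 and the actin nucleation gene ARPC1A rose, and the nucleoporin gene NUP214, the amyloid precursor gene APP, SETD5 and 1 probe set of SLC25A5 fell. With limma on all 9 arrays and Benjamini-Hochberg adjustment over 24016 probe sets, 12 probe sets were higher (0.05%) and 5 were lower (0.0208%) at an adjusted p under 0.05. They comprised 9 higher and 4 lower named genes and 4 probe sets with no gene name. By limma, 1993 probe sets had an unadjusted p under 0.05, 1065 of them higher. Most values stood close together, with 90.4% of probe sets within 0.25 on the log2 scale, and 70 probe sets differed by more than 1 (41 higher, 29 lower). Of those 70, 37 had no overlap between the groups and 6 were called. Over all probe sets 10% had no overlap, which is the share that a random order of 3 and 3 unpaired arrays gives. Among probe sets with a mean above the highest trp value the share was 14.6%.

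The replicate numbers of the labels also pair the arrays, since arrays of equal number deviated together. With the number as a block in the limma model, 11 probe sets were called (0.0458%), and 6 of these were among the 17. The named genes called by both fits were APP, ARPC1A, AHSA1 and IER2, and the adjusted p of the other 9 named genes lay between 0.0626 and 0.0725 with the block. The count also depended on single libraries. Without control replicate 2 or without LPA replicate 1 it was 0 (1520 and 1739 probe sets at an unadjusted p under 0.05 by limma), and without LPA replicate 2 it was 169. With control replicate 1 left out it was 8, and with control replicate 3 left out it was 28. Leaving out LPA+IFNt replicate 1 or LPA+IFNt replicate 3 gave 11. Every difference of the 13 named genes kept its direction in those fits.

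**Figure D1:**
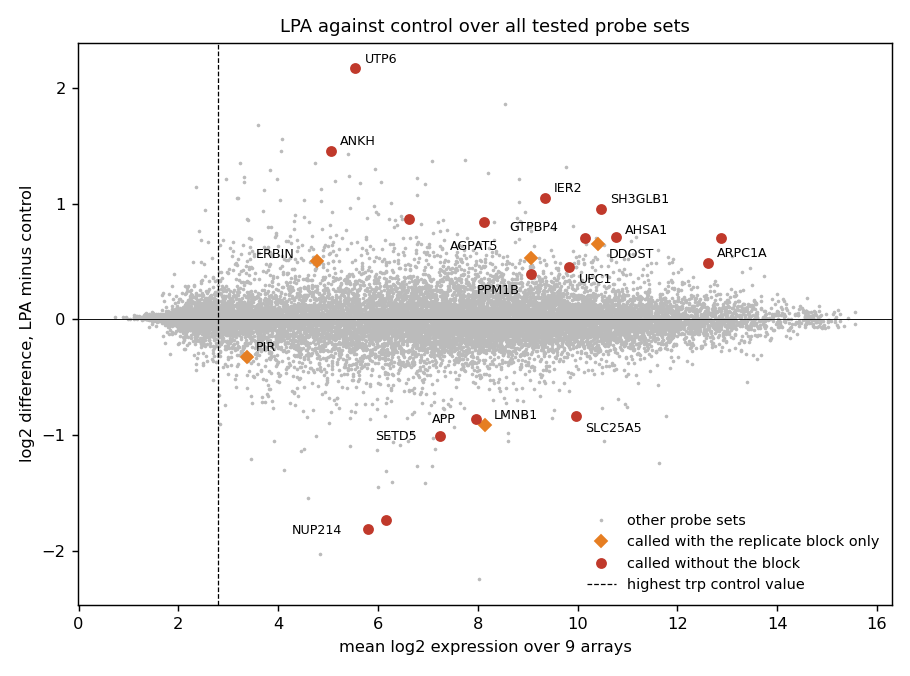
Log2 difference between LPA and control against the mean log2 expression over 9 arrays, 1 point per tested probe set. Red points are the 17 probe sets called by limma, orange diamonds are the 5 called only with the replicate block, and the dashed line is the highest trp control value (2.80). Called probe sets lie between -1.81 and 2.17.

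Among the transcripts that rose, UTP6 had the widest difference. UTP6 encodes a part of the small-subunit processome, which assembles on the nascent ribosomal RNA precursor. Its control arrays read 4.29, 4.79 and 5.04 and its LPA arrays 6.82, 6.70 and 7.12 on the log2 scale. The lowest LPA array was above the highest control array by 1.65. The difference was 2.17 (SE 0.20, 4.51-fold, adjusted p = 0.0171 by limma, 0.0675 with the block). The LPA+IFNt arrays read 5.25, 5.04 and 4.87, with a difference from control of 0.34 (adjusted p = 0.454 by limma).

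GTPBP4, a GTPase of large-subunit assembly, read 9.88, 9.78 and 9.78 in control and 10.41, 10.62 and 10.53 with LPA. The groups did not overlap, and the difference was 0.70 (SE 0.06, adjusted p = 0.0133 by limma, 0.0626 with the block). LPA+IFNt arrays stood at 10.11, 10.15 and 10.02, a difference of 0.28 from control.

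A list of 36 measured genes of ribosome biogenesis was represented by their brightest probe sets. Of these, 2 were called higher, UTP6 and GTPBP4, and 0 lower, against 0.0874% and 0.0328% of 9155 named genes. The lists were chosen with earlier results of these data known, so called members here and in the lists below are no separate evidence. The LPA arrays lay wholly below control in 10 of the 36 (27.8%, against 6.87% of all named genes) and wholly above in 2 (5.56%, against 5.35%). The list's median difference was -0.11, beside -0.0027 over all named genes, and 4 of 36 differences were above 0. Without LPA replicate 3 the median was -0.07. WDR46 (-0.43), PES1 (-0.41) and NOL6 (-0.35) had the widest negative differences, none of them called, and these 3 were picked after their values were seen.

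IER2 is a transcription regulator that growth factors and phospholipids switch on within minutes. It read 8.94, 8.88 and 8.80 in control and 9.92, 9.89 and 9.96 with LPA. The 3 LPA arrays stood close together and above all control arrays. The difference was 1.05 (SE 0.07, 2.07-fold, adjusted p = 0.0106 by limma, 0.0307 with the block). It was the only gene called when the 6 control and LPA arrays were fitted without the LPA+IFNt arrays (adjusted p = 0.0245 by limma). LPA+IFNt arrays read 9.21, 9.07 and 9.36, a difference of 0.34 from control (adjusted p = 0.036 by limma).

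The classical immediate early genes were not called. FOS, which pairs with JUN in the AP-1 factor, read 12.62, 12.51 and 12.55 in control and 12.55, 12.58 and 12.62 with LPA. EGR1, a zinc finger factor of the same early wave, differed by 0.08 with an adjusted p of 0.647 by limma. DUSP1, a phosphatase that turns off MAP kinases, stood at 12.57, 12.53 and 12.57 in control and 12.86, 12.58 and 12.96 with LPA, without overlap but with an adjusted p of 0.55 by limma. FOSL1 lay wholly below control, by -0.36 (adjusted p = 0.547 by limma). In all, 1 of 24 measured genes of the list was called, beside 0.0874% of all named genes called higher. The LPA arrays lay wholly above control in 3 (12.5%, against 5.35% of all named genes) and wholly below in 1 (4.17%, against 6.87%). The list's median difference was 0.05.

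AHSA1 encodes the activator of the ATPase of HSP90. It read 10.54, 10.40 and 10.39 in control and 11.18, 11.21 and 11.07 with LPA. The difference of 0.71 (SE 0.06, adjusted p = 0.0117 by limma, 0.016 with the block) came with no overlap between the groups, and LPA+IFNt differed from control by 0.27. Over the 29 measured genes of HSP90, HSP70 and their cochaperones only AHSA1 was called, beside 0.0874% of all named genes called higher. Of the 29 differences, 6 were above 0. The LPA arrays lay wholly below control in 2 of the 29 (6.9%, against 6.87% of all named genes) and wholly above in 1 (3.45%, against 5.35%). Those below were CDC37, which brings kinases to HSP90 (-0.28), and STIP1, which links HSP70 to HSP90 (-0.16). Neither was called.

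Actin genes gave 1 called member. ARPC1A encodes a subunit of the Arp2/3 complex, which starts branched actin filaments. Its control arrays read 12.47, 12.44 and 12.48 and its LPA arrays 13.01, 12.94 and 12.91, and the LPA+IFNt arrays were at 12.46, 12.39 and 12.39. The LPA arrays stood above the other 6 arrays, and the difference from control was 0.49 (SE 0.04, 1.40-fold, adjusted p = 0.0106 by limma, 0.0185 with the block). Another subunit gene, ARPC3, read 8.0, 8.22 and 8.15 in control and 7.70, 7.70 and 7.75 with LPA, a difference of -0.41 that did not pass (adjusted p = 0.0903 by limma). Over 22 measured genes of the complex and its activators the median difference was 0.01. Of these, 2 lay wholly above control (9.09%, against 5.35% of all named genes) and 1 wholly below (4.55%, against 6.87%).

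Targets of the actin-sensing factors MRTF and SRF gave no call among 29 measured genes. The LPA arrays lay wholly above control in 5 of them (17.2%, against 5.35% of all named genes) and wholly below in 0. TAGLN, an actin-binding protein of contractile cells, read 10.23, 10.68 and 10.32 in control and 10.89, 10.84 and 11.07 with LPA (difference 0.52, adjusted p = 0.212 by limma). CALD1, caldesmon, differed by 0.55 without overlap (adjusted p = 0.385 by limma), and DES, desmin, by 1.18 with overlap. Smooth muscle and pericyte markers, of which DES is 1, had 5 of 9 measured members above the trp value in control. With LPA, 1 lay wholly above control (11.1%, against 5.35% of all named genes). Their median difference was 0.05 (-0.02 to 0.08 over the alternatives). The part of such cells in the values of DES and TAGLN was not tested. Of 9 measured targets of YAP and TEAD, 2 lay wholly above control (22.2%, against 5.35% of all named genes). CCN1 (difference 0.10) was among them, and 0 were called.

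ANKH and SH3GLB1 also rose. ANKH encodes a membrane protein that exports pyrophosphate and ATP, and the called probe set read 4.54, 4.66 and 4.75 in control and 6.20, 6.21 and 5.91 with LPA. The difference was 1.46 (SE 0.12, adjusted p = 0.0121 by limma, 0.0626 with the block), and LPA+IFNt stood at 4.67, 4.28 and 4.33. A second and brighter probe set of ANKH, with a mean of 8.95, differed by -0.0044, so the gene's probe sets disagree.

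SH3GLB1, a membrane-curving protein of autophagy and mitochondria, read 9.97, 9.88 and 10.10 in control and 10.75, 11.12 and 10.95 with LPA. The groups did not overlap, and the difference was 0.96 (SE 0.10, adjusted p = 0.0287 by limma, 0.0675 with the block). LPA+IFNt arrays were between them at 10.48, 10.55 and 10.42, a difference of 0.50 from control (adjusted p = 0.0275 by limma).

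UFC1 and PPM1B rose by the smallest amounts. UFC1 is the enzyme that carries the ubiquitin-like protein UFM1 to its targets, many of them at the endoplasmic reticulum, and read 9.69 on each control array and 10.22, 10.16 and 10.05 with LPA (difference 0.46, SE 0.05, adjusted p = 0.0378 by limma, 0.0626 with the block). The 7 other measured genes of UFM1 conjugation were not called, 7 of 8 differences were above 0, and the median of the list was 0.16, or 0.06 without LPA replicate 3. ODR4 lay wholly above control at a difference of 0.35. PPM1B, a protein phosphatase, differed by 0.39 (SE 0.04, adjusted p = 0.0431 by limma, 0.0725 with the block), with control arrays at 8.89, 8.94 and 8.83 and LPA arrays at 9.34, 9.28 and 9.21.

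Among the transcripts that fell, NUP214 had the widest difference. NUP214 is a nucleoporin on the cytoplasmic side of the nuclear pore, where messenger RNA leaves the nucleus. Control arrays read 6.56, 6.61 and 6.76, LPA arrays 4.72, 5.13 and 4.65, and LPA+IFNt arrays 6.03, 5.68 and 6.05. The LPA arrays stood at least 1.43 below control, and the difference was -1.81 (SE 0.15, adjusted p = 0.0117 by limma, 0.0626 with the block). LPA+IFNt differed from control by -0.72 (adjusted p = 0.0317 by limma). Of 26 measured genes of the nuclear pore, NUP214 was the 1 called, and 3 differences were above 0. The LPA arrays lay wholly below control in 4 (15.4%, against 6.87% of all named genes) and wholly above in 1 (3.85%, against 5.35%). NUP210 was one of those below, by -0.33 (adjusted p = 0.279 by limma, 0.0716 with the block), and the list's median was -0.07, or -0.02 without LPA replicate 3 and -0.12 without LPA replicate 2.

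APP, the amyloid precursor protein, a membrane protein that secretases cut, read 8.30, 8.33 and 8.41 in control and 7.5, 7.34 and 7.6 with LPA. The highest LPA array was 0.70 below the lowest control array. The difference was -0.86 (SE 0.07, adjusted p = 0.012 by limma, 0.013 with the block), and LPA+IFNt read 8.02, 7.97 and 8.14, a difference of -0.30 from control (adjusted p = 0.0628 by limma). APH1A, a subunit of gamma-secretase, also lay wholly below control, by -0.55, but did not pass (adjusted p = 0.13 by limma). The other 9 measured genes of the amyloid precursor family and its secretases were not called. APBB2 had the highest difference of them, 0.22, and lay wholly above control. Of the 11 measured genes 2 lay wholly below control (18.2%, against 6.87% of all named genes) and 2 wholly above (18.2%, against 5.35%). Their median difference was 0.04, with 7 above 0, and 1 was called lower, beside 0.0328% of all named genes.

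SETD5, a chromatin regulator with a SET domain, read 7.71, 7.73 and 7.52 in control and 6.82, 6.71 and 6.40 with LPA. The groups did not overlap, and the difference was -1.01 (SE 0.11, adjusted p = 0.0378 by limma, 0.0675 with the block). SLC25A5, the ADP/ATP carrier of the inner mitochondrial membrane, had 1 probe set at 10.35, 10.45 and 10.25 in control and 9.51, 9.39 and 9.65 with LPA, a difference of -0.83 (SE 0.08, adjusted p = 0.0157 by limma, 0.0675 with the block). The brighter probe set of SLC25A5, with a mean of 13.47, differed by -0.04. With it standing for the gene, 0 of 22 measured genes of mitochondrial carriers and porins were called.

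**Figure D2:**
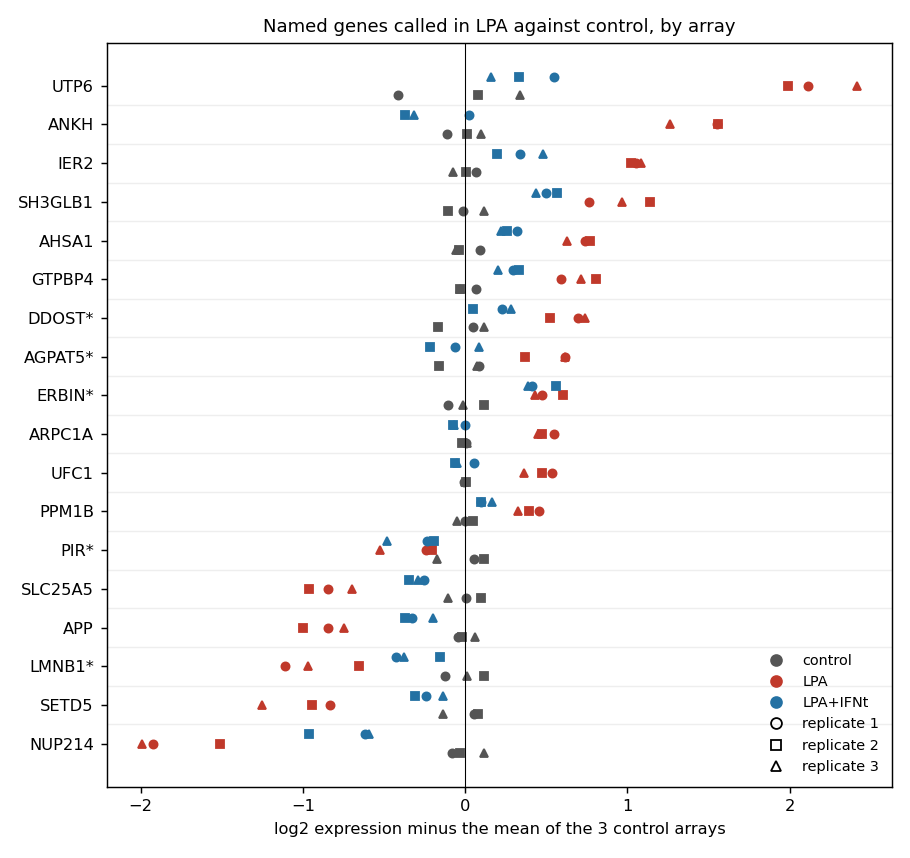
Log2 expression of the 18 named genes called in LPA against control, minus the mean of the 3 control arrays, for each array. Colours mark control, LPA and LPA+IFNt, shapes mark the replicate number, and an asterisk marks the 5 genes called only with the replicate block. For each gene the 3 LPA arrays lie wholly on one side of the 3 control arrays, as for UTP6 (control 4.29 to 5.04, LPA 6.70 to 7.12). The genes were chosen by tests that favour such separation, so it is no separate evidence.

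The block added 5 named genes, which differed by nearly the same amount in each pair of equal number. The blocked fit favours such genes, so this evenness is no separate evidence. DDOST, a subunit of the complex that attaches sugar chains to proteins in the endoplasmic reticulum, was higher by 0.64, 0.69 and 0.62 in pairs 1, 2 and 3 (adjusted p = 0.0104 by limma with the block, 0.0748 without it). LMNB1, which encodes lamin B1 of the nuclear envelope, was lower, with pair differences of -0.98, -0.77 and -0.98 (adjusted p = 0.0185 by limma with the block, 0.0706 without). AGPAT5, an acyltransferase that uses LPA as substrate to make phosphatidic acid, was higher by 0.53, 0.53 and 0.54 (adjusted p = 0.0317 by limma with the block, 0.169 without).

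For AGPAT5, 3 other probe sets had differences of 0.44 to 0.48 and the remaining probe set had -0.13. ERBIN, a scaffold that binds the receptor ERBB2, was called through a probe set with a mean of 4.79 (0.50, adjusted p = 0.0307 by limma with the block). Its brightest probe set differed by 0.21. PIR, an iron-binding nuclear protein, was called by a probe set with a mean of 3.38 (-0.32, adjusted p = 0.0383 by limma with the block), and its brighter probe sets differed by -0.58 and -0.38 without a call.

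Leaving out dim probe sets raised the counts. Among the 15053 probe sets whose mean passed the highest trp value, 37 were called by limma (0.246%), 21 higher and 16 lower, and 102 with the block (0.678%). The first of these fits held 25 named genes, 12 of the 13 above and 13 others, which were chosen after their values were seen. Of the others, TCAF1, RSAD2, LRATD1, PPP1CB, SBDS, VAMP7 and SPINT2 were higher and RPS9, PRR15L, NPM3, LMNB1, THBS1 and PKP1 lower. The called probe set of THBS1 differed by -1.05 and its brightest by 0.02, so those disagree. PKP1, a desmosomal protein, read 7.19, 6.71 and 6.39 in control and 5.36, 5.39 and 5.18 with LPA, a difference of -1.45 (adjusted p = 0.0177 by limma with dim probe sets left out, 0.0566 with all probe sets).

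VAMP7, a SNARE of vesicle fusion, read 7.90, 8.09 and 8.19 in control and 8.59, 8.63 and 8.62 with LPA, and SPINT2, an inhibitor of serine proteases on epithelial surfaces, 11.30, 11.23 and 11.34 against 11.79, 11.65 and 11.88. Neither gene's groups overlapped. Both stood at an adjusted p of 0.0566 by limma over all probe sets, the value nearest outside the threshold among named genes, and the nearest inside it was that of PPM1B at 0.0431.

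None of 7 measured LPA receptors and of 10 measured genes in a list of LPA synthesis and breakdown was called by either fit over all probe sets. AGPAT5, called with the block above, is not in that list. LPAR6, a G protein-coupled receptor for LPA, read 7.19, 7.34 and 7.39 in control, 6.48, 6.67 and 6.61 with LPA and 6.52, 6.91 and 6.91 with LPA+IFNt. The LPA arrays lay wholly below control, by -0.71, -0.67 and -0.77 in the 3 pairs. The difference of -0.72 (SE 0.11) stood at an adjusted p of 0.0819 by limma and 0.0561 with the block, and at 0.019 with the block and without dim probe sets. LPAR6 was the 1 of 7 receptors with no overlap (14.3%, against 6.87% of all named genes wholly below).

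LPAR2 read 5.68, 5.48 and 5.50 in control and 5.50, 5.59 and 5.24 with LPA, with overlap and an adjusted p of 0.985 by limma. LPAR1 lay between 3.21 and 3.42 on the 6 arrays, and LPAR4 and LPAR5 lay between 2.13 and 2.47, under the highest trp value, so those 2 were at background. PPARG, a nuclear receptor that LPA can bind, differed by -0.21. ENPP2, which encodes autotaxin, read 6.36, 6.10 and 6.14 in control and 6.32, 5.88 and 6.28 with LPA. No gene of LPA synthesis and breakdown in the list had groups without overlap, and their median difference was -0.04 (-0.07 to 0.01 over the alternatives).

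Uterine genes of reproduction did not pass either. PTGS2, the inducible cyclooxygenase of prostaglandin synthesis, read 13.00, 12.88 and 13.07 in control and 13.22, 12.97 and 13.44 with LPA, higher in each pair by 0.21, 0.09 and 0.37 (adjusted p = 0.697 by limma). None of 17 measured genes of prostaglandin synthesis, transport and receptors had groups without overlap. OXTR, the oxytocin receptor, read 9.49, 9.39 and 9.35 in control and 9.11, 9.18 and 8.71 with LPA. It lay wholly below control by -0.41 (adjusted p = 0.427 by limma), with LPA+IFNt at 9.03, 9.04 and 8.76. Among 12 measured steroid and oxytocin receptors and cofactors, OXTR was the 1 wholly below control (8.33%, against 6.87% of all named genes). HSD11B1 was the 1 wholly above, by 0.18 (8.33%, against 5.35%). Of 35 growth factor and implantation genes, 6 lay wholly above control (17.1%, against 5.35%) and 3 wholly below (8.57%, against 6.87%), and 0 were called. DKK1, a secreted inhibitor of WNT, differed by 0.61, BMP7, a bone morphogenetic protein, by -0.61 and MSX1, a homeobox factor of uterine receptivity, by -0.24.

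None of 38 measured interferon-stimulated genes was called over all probe sets. RSAD2, an antiviral enzyme, read 7.25, 7.17 and 7.40 in control and 8.56, 8.10 and 8.69 with LPA, a difference of 1.18 (adjusted p = 0.0566 by limma, 0.0208 with dim probe sets left out). On the LPA+IFNt arrays it stood at 13.93, 13.72 and 13.85. ISG15, a ubiquitin-like protein, read 7.89, 7.94 and 7.97 in control and 8.73, 8.35 and 8.84 with LPA (0.71, adjusted p = 0.105 by limma), beside 14.63, 14.42 and 14.62 with LPA+IFNt.

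MX1, a GTPase that blocks viruses, differed by 0.23 (adjusted p = 0.649 by limma). MX2 stayed under the trp value on the control and LPA arrays, although its groups did not overlap, with a gap of 0.01. The list had 6 members wholly above control (15.8%, against 5.35%) and 1 wholly below (2.63%, against 6.87%), with a median of 0.07. In control 32 of the 38 measured genes were above the trp value, and these counts take in members under it. The receptor genes IFNAR1 and IFNAR2 differed by 0.34 and 0.15, both with overlap.

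Cell cycle genes had mostly negative differences, but none passed. Of 35 measured genes, 9 lay wholly below control (25.7%, against 6.87% of all named genes), 0 wholly above, and 4 differences were above 0. Over all named genes 4403 of 9155 differences were above 0. All 35 listed genes were above the trp value in control, but only 7009 of the 9155 were. The list's median difference was -0.22, and it was -0.23, -0.06 and -0.46 in pairs 1, 2 and 3, beside -0.01, 0.01 and -0.01 over all named genes. Without LPA replicate 3 the list's median was -0.085, and without LPA replicate 2 it was -0.34. CCND2, a D-type cyclin, read 8.77, 8.38 and 8.32 in control and 8.07, 8.05 and 7.53 with LPA (-0.61, adjusted p = 0.367 by limma). AURKB, a mitotic kinase, differed by -0.38 and MCM3, a subunit of the replicative helicase, by -0.22. No stromal marker was called. Their median difference was 0.06 (0.11, -0.01 and 0.12 in pairs 1, 2 and 3), with 15 of 16 above 0. Wholly above control lay 3 of them (18.8%, against 5.35% of all named genes). Summed levels divided by the number of markers were 10.56 to 10.62 in control and 10.64 to 10.89 with LPA. For the 17 epithelial markers those levels were 9.56 to 9.66 and 9.60 to 9.70. The part of cell composition in the cell cycle values was not tested, and in these bulk samples fewer cells of a type and less RNA per cell cannot be told apart.

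Matrix and inflammatory genes had mostly positive differences, without a call. Among 27 proteases and inhibitors 6 lay wholly above control (22.2%, against 5.35%) and 0 wholly below, with a median of 0.11. PLAUR, the urokinase receptor, read 11.73, 11.85 and 11.78 in control and 12.09, 12.04 and 12.04 with LPA (0.27, adjusted p = 0.169 by limma), and TIMP1, an inhibitor of matrix metalloproteinases, differed by 0.30. Of 29 collagens and matrix glycoproteins 3 lay wholly above control (10.3%, against 5.35%), POSTN (0.55) and COL12A1 (0.31) among them. Of 38 chemokine, cytokine and NF-kappaB genes 34 differences were above 0, but 2 lay wholly above control (5.26%, against 5.35%), NFKBIE (0.30) and CD40 (0.19). The median of that list was 0.17, 0.01 and 0.26 in pairs 1, 2 and 3. Over all arrays it was 0.12, without LPA replicate 3 it was 0.06, and without LPA replicate 2 it was 0.24. Without control replicate 1 it was 0.19, and for the proteases the median without LPA replicate 3 was 0.07 and without LPA replicate 2 was 0.18.

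Genes of endoplasmic reticulum stress had 4 of 21 wholly above control (19%, against 5.35%) and 1 wholly below (4.76%, against 6.87%), PDIA3 (-0.24). Of 16 sterol synthesis genes 4 lay wholly below (25%, against 6.87%), DHCR7 (-0.31) and HMGCS1 (-0.16) among them, and 1 wholly above (6.25%, against 5.35%).

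**Figure D3:**
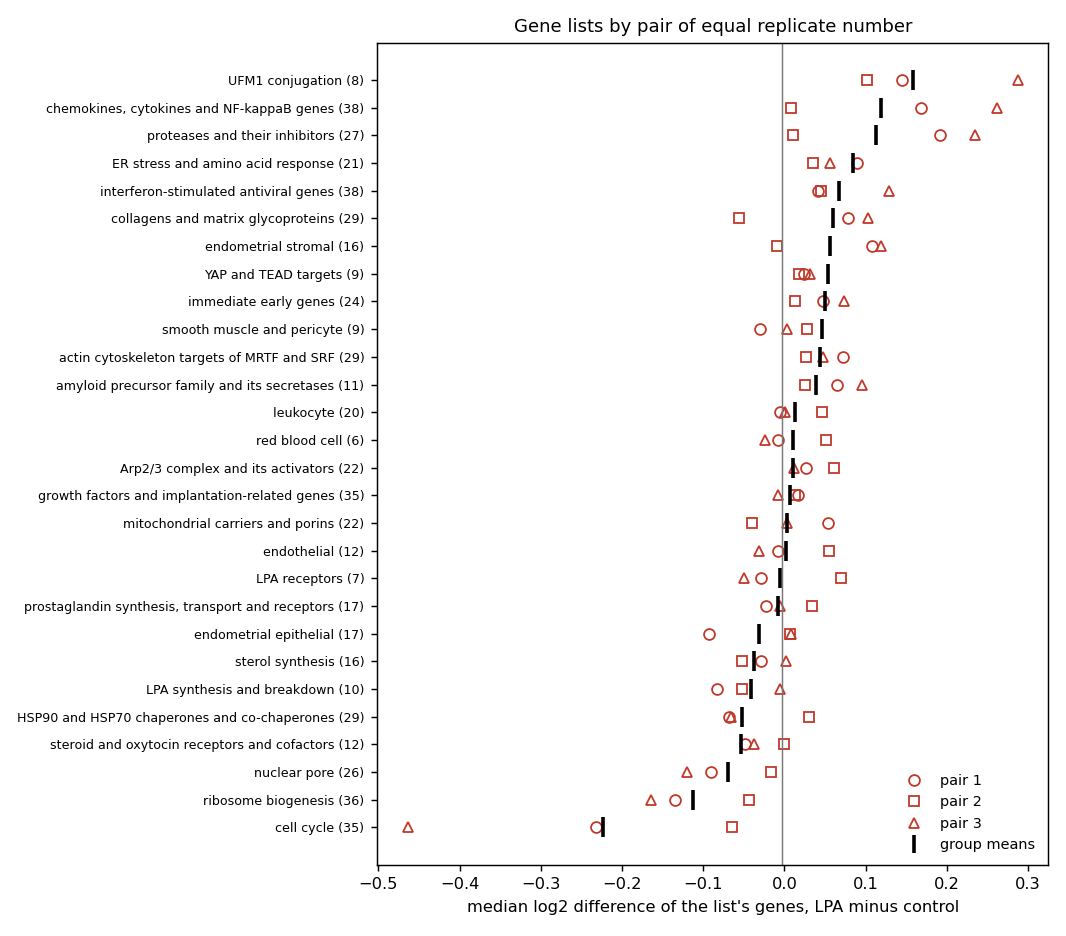
Median log2 difference, LPA minus control, of each gene list, with the number of measured genes in brackets. Open symbols are the medians within pairs 1, 2 and 3 of equal replicate number, black bars are those of the group means, and the grey line is the median over all named genes. Cell cycle genes lie lowest (-0.23, -0.06 and -0.46 by pair), and pair 2 lies nearest 0 there.

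Other named transcripts had wide differences but no call. SPINK1, a secreted trypsin inhibitor, read 9.14, 8.81 and 9.09 in control and 7.70, 8.76 and 3.83 with LPA. Its difference of -2.25 rested on LPA replicate 3, and LPA replicate 2 differed from its pair by -0.05. COL21A1, a minor collagen, read 5.98, 5.47 and 6.21 in control and 4.58, 4.34 and 2.67 with LPA (-2.02, adjusted p = 0.233 by limma). SMPX, a small muscle protein, was lower by -1.67, -1.0 and -1.95 in the pairs.

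On the higher side, TCAF1, a regulator of the cold-sensing channel TRPM8, read 3.49, 3.60 and 3.30 in control and 4.74, 4.82 and 5.52 with LPA (1.56, adjusted p = 0.0706 by limma). RARRES1, a retinoid-responsive membrane protein, read 11.08, 11.15 and 11.19 in control and 12.37, 11.24 and 12.97 with LPA, so its difference of 1.05 rested on replicates 1 and 3. KRT23, a keratin, had 2 probe sets at 1.17 and 0.80. For ADAM9 (1.38), VPS37A (1.20) and CAV1 (0.93), the brightest probe set of the gene differed by 0.06, 0.12 and 0.08. FGF1, a growth factor, had differences from -0.13 to 1.08 over its 4 bright probe sets. On the lower side the remaining genes were TMEM37 (-1.31), LOC783399 (-1.24), CCDC71 (-1.13) and CLDN10 (-1.13), none of them called.

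The LPA arrays differed from each other more than the control arrays did. LPA replicate 2 stood more than 1 log2 unit from the mean of the other LPA arrays in 172 probe sets and LPA replicate 3 in 165, against 27 for LPA replicate 1 and 20 to 27 for the control arrays. Over 47 named probe sets, of 45 genes, 1 LPA array stood more than 1.5 from the mean of the other 2. These genes were chosen by that spread after their values were seen, and no test was made on them.

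LPA replicate 2 was the low array in 29 of the 47 probe sets, and in 29 of 29 the control array and the LPA+IFNt array of the same number were also the lowest of their groups. BOLA-DQA2, an MHC class II chain, read 4.80, 3.13 and 5.13 in control, 6.89, 2.19 and 8.03 with LPA and 4.10, 2.01 and 6.44 with LPA+IFNt. UBD, a ubiquitin-like protein induced by cytokines, read 5.06, 3.01 and 6.34 in control and 7.23, 2.75 and 8.14 with LPA. S100A12, an antimicrobial calcium-binding protein, read 8.46, 7.12 and 9.04 in control and 9.89, 6.89 and 10.38 with LPA.

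For BOLA-DQA2, UBD and S100A12, LPA was the higher array of the pair in replicates 1 and 3 and the lower in replicate 2. SERPINA1, an inhibitor of elastase, had LPA values of 8.25, 4.96 and 8.78 against 6.86, 5.39 and 7.11. SLC6A14, an amino acid transporter, was higher with LPA in each pair, with 7.63, 6.56 and 8.26 in control and 9.90, 7.42 and 10.71 with LPA. PTPRC, which encodes the leukocyte marker CD45, read 3.68, 3.65 and 3.75 in control and 4.42, 3.73 and 5.17 with LPA. LCP1, an actin bundler of leukocytes, read 6.00, 5.92 and 6.08 in control and 6.63, 6.84 and 6.31 with LPA, where replicate 2 was the highest and replicate 3 the lowest. Over the 20 leukocyte markers, 14 differences were above 0 with a median of 0.01, and summed levels divided by the number of markers were 3.03 to 3.12 in control and 3.10 to 3.24 with LPA. The part of leukocytes in the replicate pattern was not tested.

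LPA replicate 3 was the low array in 16 of the 47 probe sets, where control replicate 3 was lowest of its group in 11 and LPA+IFNt replicate 3 in 13. S100G, a calcium-binding protein of uterine epithelium, read 9.12, 9.09 and 8.97 in control and 8.32, 8.91 and 6.80 with LPA, and LGALS4, a galectin, 6.66, 6.80 and 6.58 against 5.92, 6.38 and 4.56. Both had LPA arrays wholly below control and were not called. IHH, the hedgehog ligand of uterine epithelium, stood at 4.45 in LPA replicate 3 and at 5.97 to 6.54 on the other control and LPA arrays.

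**Figure D4:**
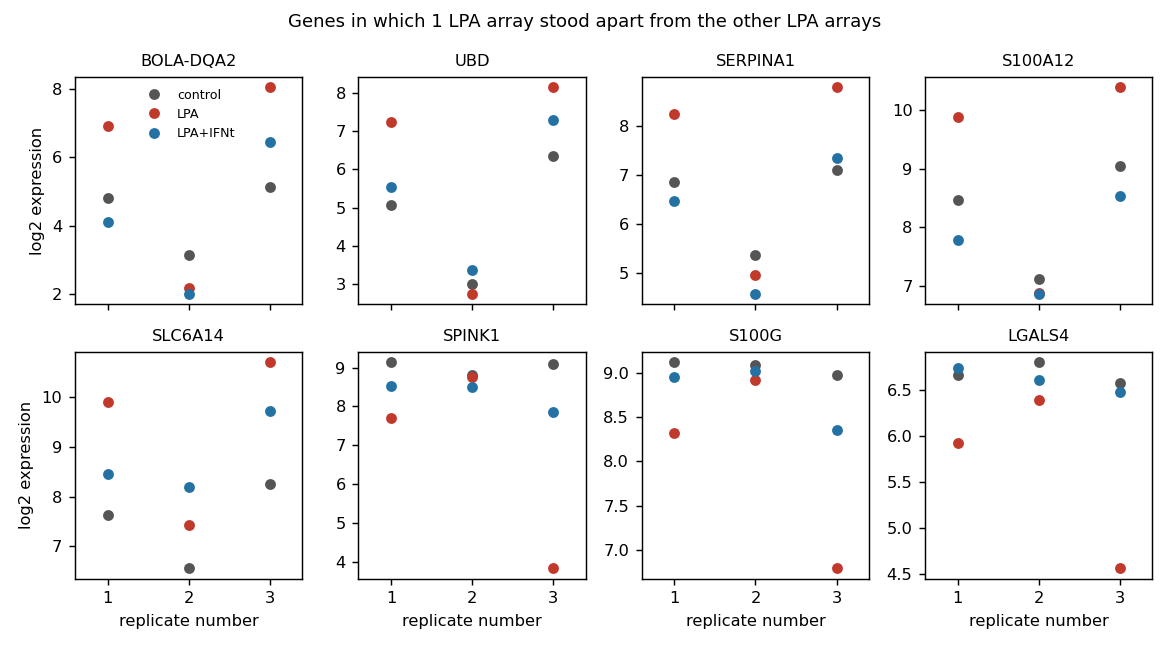
Log2 expression of 8 genes in which 1 LPA array stood apart, by replicate number, for control, LPA and LPA+IFNt arrays. In BOLA-DQA2 the replicate 2 arrays are the lowest of all 3 groups (3.13, 2.19 and 2.01), and in SPINK1 LPA replicate 3 (3.83) lies under the other 8 arrays.

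Of the 4 called probe sets with no gene name, that with the smallest adjusted p read 7.41, 7.35 and 7.38 in control, 8.25, 8.12 and 8.31 with LPA and 8.75, 8.68 and 8.86 with LPA+IFNt. It was higher with LPA by 0.84 (adjusted p = 0.0106 by limma, 0.013 with the block). The 1 unnamed probe set that was lower fell by 1.74 on the log2 scale, from 6.75, 6.71 and 7.17 in control to 5.05, 5.35 and 5.02 with LPA (adjusted p = 0.0117 by limma, 0.0624 with the block).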

How the data were processed

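Log2 expression values were deposited by the authors for each probe set and array, for which the submitters' processing notes name Partek and RMA, with versions not given in the sources used here. Base 2 was taken from RMA's usual output and the range of values, and RMA hides a change that moves most transcripts 1 way. Limma 3.58.1 in R 4.3.3 (lmFit, eBayes, two-sided, no filter) was fitted to all 9 arrays and adjusted over 24016 probe sets. The fit was also run on simulated arrays drawn independently. Those had no pairing and no shared cows, so that run does not cover this design. Equal replicate numbers pair the arrays: deviations from group means correlated at 0.337 to 0.464 between control and LPA arrays of equal number and at -0.403 to -0.115 for different numbers. Array annotation names 13292 tested probe sets with 1 symbol (9155 genes), 86 with several and 10638 with none, and 13263 of the symbols were found in RefSeq's table for ARS-UCD2.0. A gene in a list is its brightest probe set, and the shares over all named genes set beside the lists include genes at background. P-values measure the spread between pools that share cows, and 3 arrays a group limit the precision. Members and lists were chosen with earlier results of these data known, so the called members of a list are no separate evidence. The genes given are those called by either fit, the 8 widest differences each way without overlap and with a group mean of at least 5, up to 3 per list by p, a set of LPA, interferon and early genes, and those marked as chosen after their values were seen. Alternatives were the block, the 6 arrays alone, filters, centring, averaging, limma's variance options and each array left out. One gene list is not reported here.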

Additional observations from a re-analysis of the deposited data

How the results depend on the processing

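The differences of the 18 called named genes kept their direction under the alternatives run for them. The 17 probe sets called by limma became 11 with the replicate block, 1 with the 6 control and LPA arrays alone, 0 with those and the block (2921 at an unadjusted p under 0.05), 37 without dim probe sets, 50 with spike-in centring, 28 with the probe sets of a gene averaged, 36 with a variance trend and 0 without variance moderation (1476 at an unadjusted p under 0.05). Leaving out 1 array gave 0 to 169. Median centring (23) and robust variances (17) stayed within 1.5 times. The 11 of the blocked fit, in alternatives added after the data were seen, became 102 without dim probe sets, 563 with spike-in centring, 167 with median centring, 112 with a variance trend, 2 without moderation and 0 to 118 without 1 array. The share of probe sets with no overlap between the groups, 10%, was 14.6% without dim probe sets and 7.72% with spike-in centring. Without 1 array it was 14.2% to 23.9%, where fewer arrays must be apart. Medians of 28 lists stayed above 0 in 11, below 0 in 6 and changed sign in 11 over the alternatives, and the cause was not tested. Of single genes that were not called, WDR3, AGPAT1, ENPP2 and LPAR4 changed sign in at least 1 alternative. Signal near background and 3 pooled arrays a group limit what can be called.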
